A study of Mus musculus with 8 samples.

Results

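The genes of mitosis and G2 phase were followed in RNA from the corpus of the mouse stomach, the region that secretes acid and pepsinogen. The group comprised 40 genes chosen by name (mitotic kinases, cyclins, spindle and checkpoint genes and chromosome proteins). All 40 were found among the 54532 genes of the count table, and all 40 passed the filter on low counts that left 15862 genes for testing. The 8 mice, of mixed C57BL/6 X CD1 background, all carried Six2-Cre+/-, so that Six2 regulatory sequence drove the recombinase in controls and mutants alike, and none was treated. The 4 controls were PKAcaR wt/wt. The 4 mutants were PKAcaR fl/wt, with 1 copy of a floxed allele whose product, from what is known of it, is a catalytic subunit of protein kinase A that works without cyclic AMP after Cre has acted. Each library came from a separate animal, and the age and sex of the animals were not stated. Y-linked transcripts marked control 2, mutant 1 and mutant 2 as male. The libraries were made from the corpus as a whole, so the cells that carried the recombined allele were not separated from the rest. The question was whether transcripts of the mitotic programme differed between mutant and control corpus.

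Most genes of this programme are transcribed periodically, rising through G2 phase and falling after division. In a tissue their summed level therefore follows mainly the number of cells that are dividing. Cyclin-dependent kinase 1 with the A and B cyclins starts mitosis, condensins and topoisomerase II shape the chromosomes, kinesins build the spindle, and a checkpoint at the kinetochores holds the cell until every chromosome is attached. The anaphase-promoting complex, with its activator Cdc20, then marks securin and the B cyclins for degradation, which frees separase to cut cohesin and lets the cell leave mitosis. In the corpus, dividing cells are found mainly in the isthmus of the gland, between the pit cells above and the neck, parietal and chief cells below. In bulk RNA, fewer cells of a type and less RNA per cell cannot be told apart.

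Promoters of G2 and mitosis genes are known for a pair of short elements, the cell cycle genes homology region (TTTGAA or TTCGAA) and the CCAAT box. Both strands of the 250 bases before each RefSeq start (GRCm38.p6) were searched. TTCGAA reads the same on both strands, TTTGAA and CCAAT can share a base, and a gene with several starts counted if any of them held the motif. Of the 40 genes 33 were matched by symbol, and Ccna2, Cdc25c, Aurkb, Smc4, Tpx2, Kif20a and Foxm1 were not. TTTGAA or TTCGAA stood in 16 of the 33 (48.5%), against 19.6% of 27025 genes in the table, and CCAAT in 27 (81.8%), against 37.5%. Both kinds stood in 15 (45.5%), against 7.0% of all genes. With the first 50 bases after the start added, the count for both kinds was 24 (72.7%, against 8.61%). The RefSeq start lay within 100 bases of the count table's end of the gene in 24 of the 30 genes with a single start, and farther off in the remaining 6. These are letter matches, described without a test.

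Stretches of 5 promoters are shown, those of the called gene Plk1, of the uncalled genes Smc2 and Top2a and of Cdk1 and Mki67 as widely used markers of division, with matches on either strand in capitals (TTCAAA and ATTGG are TTTGAA and CCAAT read on the other strand). They lie at chr10:69352939-69353162 on the minus strand for Cdk1, chr7:135716380-135716629 on the minus strand for Mki67, chr11:99024190-99024439 on the minus strand for Top2a, chr4:52438971-52439220 on the plus strand for Smc2 and chr7:122159185-122159434 on the plus strand for Plk1. The Cdk1 stretch is 224 bases long and ends before the gene of the count table, and each of the others is 250 bases long.
Cdk1: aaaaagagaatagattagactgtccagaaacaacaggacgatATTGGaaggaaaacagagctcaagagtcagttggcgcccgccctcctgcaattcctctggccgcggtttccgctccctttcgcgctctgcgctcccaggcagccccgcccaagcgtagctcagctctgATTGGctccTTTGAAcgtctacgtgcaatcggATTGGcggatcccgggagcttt
Mki67: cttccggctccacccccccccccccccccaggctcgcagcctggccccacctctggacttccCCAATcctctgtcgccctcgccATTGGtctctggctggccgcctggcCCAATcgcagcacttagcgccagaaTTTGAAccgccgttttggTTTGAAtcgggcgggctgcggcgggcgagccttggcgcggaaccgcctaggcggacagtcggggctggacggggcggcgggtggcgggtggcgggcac
Top2a: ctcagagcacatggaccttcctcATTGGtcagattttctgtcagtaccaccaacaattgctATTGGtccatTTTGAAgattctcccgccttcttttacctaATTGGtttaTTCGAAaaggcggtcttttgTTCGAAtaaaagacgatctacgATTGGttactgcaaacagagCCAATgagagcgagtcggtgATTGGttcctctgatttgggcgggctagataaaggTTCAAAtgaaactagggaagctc
Smc2: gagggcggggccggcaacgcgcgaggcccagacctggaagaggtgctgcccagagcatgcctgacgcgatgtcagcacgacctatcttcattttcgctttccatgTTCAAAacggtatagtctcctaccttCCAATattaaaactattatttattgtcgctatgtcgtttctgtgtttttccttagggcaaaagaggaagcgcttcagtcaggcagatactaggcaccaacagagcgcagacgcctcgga
Plk1: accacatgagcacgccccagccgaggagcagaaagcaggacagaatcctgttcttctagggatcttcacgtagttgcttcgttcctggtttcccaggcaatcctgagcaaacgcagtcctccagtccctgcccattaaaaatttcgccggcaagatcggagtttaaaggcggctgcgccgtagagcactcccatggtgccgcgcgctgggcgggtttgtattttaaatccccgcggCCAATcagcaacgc
Cdk1 had TTTGAA 71 and 15 bases before its start, the latter beyond the stretch shown, with CCAAT on the other strand at 208, 80 and 48, and Mki67 had TTTGAA at 116 and 98. Top2a had TTCGAA at 140 and 120 and TTTGAA at 179 and, on the other strand, 23. Smc2 had a single TTTGAA, on the other strand at 145, and a CCAAT at 119. Plk1 held CCAAT at 14 and neither TTTGAA nor TTCGAA in this window. The window of Pttg1 held none of the 3 motifs, but its RefSeq start lies 270 bases inside the gene of the count table, so it is not shown.

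The libraries held 18184281 to 23814720 counted reads. Values below are CPM, read counts over library sizes scaled by the trimmed mean of M values (TMM), with 3 reads worth 0.179 to 0.197 CPM in controls and 0.10 to 0.129 in mutants. Prkaca, the gene that the allele alters, averaged 80.0 ± 4.04 CPM in controls (SD, n = 4) and 37.8 ± 1.86 CPM in mutants (SD, n = 4), with all mutants below all controls. Mutant 2 stood apart, its log2 CPM correlating across genes at 0.839 to 0.881 with the other mutants, against at least 0.977 among those. It also held 971 CPM summed over 6 neutrophil markers (at most 63.6 in the other mutants, 1.97 to 11.3 in controls, with the defining marker Ly6g at 0 reads in every control), 1175 over 6 macrophage markers (at most 323, and 143 to 155), 799 over 5 endothelial markers (at most 121, and 145 to 176) and 4869 over 9 B and plasma cell markers (at most 1865, and 677 to 805). In the B and plasma cell list the control sums were largely Xbp1 (421 to 482 CPM), which was not called (adjusted p = 0.531) and stood at 410 CPM in mutant 2. Igha made up 3301 CPM of that list in mutant 2. Of the tested markers, 4 of 5 neutrophil, 1 of 6 macrophage and 4 of 9 B and plasma cell markers were higher in mutants, while the 5 endothelial markers had adjusted p between 0.195 and 0.970. Squamous markers summed to 245 CPM in control 3 and 676 in mutant 3, and to at most 3.63 in the remaining 6 libraries. Parietal markers fell in 4 of 6 genes and chief cell markers in 3 of 5, mucous neck cell markers rose in 6 of 6, and all 6 smooth muscle markers fell. The isthmus list summed to 574 to 657 CPM in controls and 1065 to 1544 in mutants, with 3 of 9 markers higher and 1 lower. Prom1, a progenitor surface marker, made up most of that difference, at 174 to 223 CPM in controls and 613 to 1016 in mutants. The other 8 markers, Mki67 among them, summed to 399 to 440 CPM in controls and 405 to 528 in mutants.

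As a group, the mitosis and G2 genes were mostly not called. Plk1 rose, Pttg1 fell, and 38 of 40 did not pass (edgeR's quasi-likelihood test, p under 0.05 after Benjamini-Hochberg adjustment). Over all genes tested, 20.2% were called, 9.39% higher and 10.8% lower, so the count of 2 in 40 lay below the background. The log2 fold changes, mutant over control, were above 0 in 37 of the 40 genes (92.5%, against 55% of all genes) and had a median of 0.55, against 0.07 over all genes. Among the 38 uncalled genes they ran from -0.07 for Cenpa to 1.17 for Kif2c, with adjusted p between 0.0527 and 0.962. At an unadjusted p under 0.05, 5 genes were higher (Plk1, Smc2, Top2a, Bub1b and Cenpf; 18.9% of all genes) and 1 was lower (Pttg1; 17.5% of all genes). In the same libraries DESeq2 called Plk1, Smc2 and Top2a higher and Pttg1 lower, with a background of 29.6%, 14.6% higher and 15% lower.

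**Figure D1:**
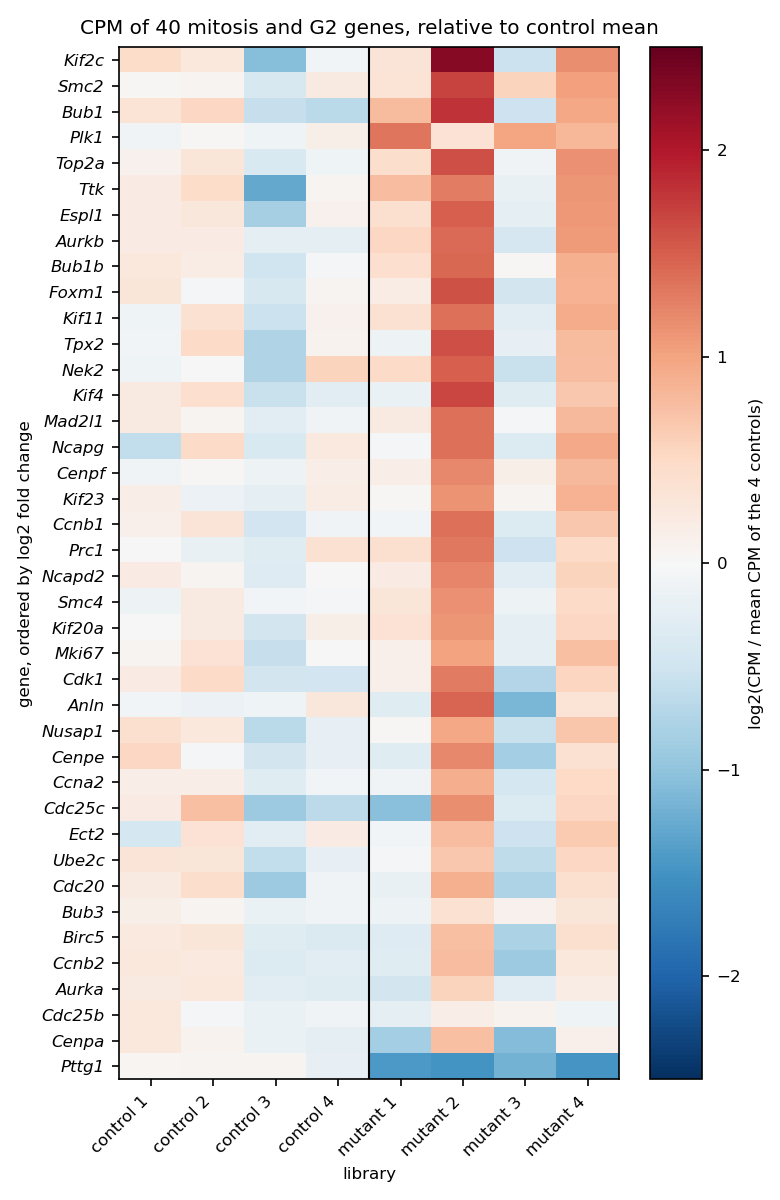
Heat map of the 40 genes (rows, ordered by log2 fold change) in the 4 control and 4 mutant libraries (columns), coloured by log2 of the CPM over the mean of the 4 controls. Mutant 2 is the highest of the 8 libraries in 37 rows, while Plk1 and Pttg1 differ between the groups without it.

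The positive values came unevenly from the mutants. Mutant 2 was the highest of all 8 libraries in 37 of the 40 genes, against 30.6% of all genes tested, and the exceptions were Plk1, Pttg1 and Cdc25b. The median ratio to the control mean over the 40 genes was 2.32 in mutant 2 and 1.59 in mutant 4, but 1.05 in mutant 1 and 0.791 in mutant 3. The same median over all genes lay between 0.991 and 1.01 in every library. Over the 40 genes, the median ratio in controls ran from 0.761 in control 3 to 1.18 in control 2. Mutant 4 lay above every control in 32 genes, mutant 1 in 14 and mutant 3 in 2, and mutant 3 lay below every control in 13. Control 3 was the lowest control in 29 genes and mutant 3 the lowest mutant in 32, and these were the libraries with squamous transcripts. The counts for mutants 1, 3 and 4 and for control 3 were not set against all genes, so they are descriptions only. Groups did not overlap in 3 genes (30.3% of all genes), Plk1 and Smc2 above the controls (14.2% of all genes lay so) and Pttg1 below (16.1%), and they overlapped in 37.

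Summed over the 38 genes other than Plk1 and Pttg1, the controls held 485, 505, 342 and 425 CPM and the mutants 458, 942, 365 and 669. Mutants 2 and 4 thus lay above all controls, and mutants 1 and 3 within their range. Mutant 2, with the highest sum, also held the highest neutrophil, macrophage, endothelial and B and plasma cell sums, and the highest T and NK cell sum (61.1 CPM, at most 17.2 elsewhere). It held the highest sum of the isthmus list as well, Mki67 included (1544 CPM, at most 1307 elsewhere). The epithelial marker sums of mutant 2 were the lowest of all libraries for the parietal list (251 CPM, against 1874 to 3614 in the other mutants), the chief cell list (847, against 11638 to 40124) and the pit cell list (4281, against 23962 to 33222). Gif, counted in the parietal list, held 147 of the 251 CPM of that list in mutant 2 and 1094 to 1406 CPM in the other mutants. The parietal sums should thus not be read as parietal cells alone, since the source of Gif (parietal or chief cells) was not tested. Atp4a, also in that list, stood at 4.41 CPM, against 444 to 1443. The mucous neck sum of mutant 2 was 9747 CPM, the lowest mutant but above the controls (2394 to 6204). The part of these cells in the result was not tested. Without mutant 2, the median log2 fold change of the 40 genes was 0.22 (0.02 over all genes), 30 of the 40 values were above 0 (51.9% of all genes), and 2 genes were higher (Plk1 and Smc2; background 15.2%) and 1 lower (Pttg1; background 18.3%). Without mutant 3, 4 genes were higher (Plk1, Smc2, Top2a and Aurkb; background 9.56%) and the median was 0.74. Column totals as library sizes raised the median of all genes by 0.70 and called 30 of the 40 genes higher (background 59.3%) and Pttg1 lower (background 4.56%, and 63.9% in either direction). The median of the 40 genes exceeded that of all genes by 0.48 under either scaling. A change of scaling shifts all genes by nearly the same amount, so this difference could hardly change and is not a second check. The TMM factors were 0.688 to 0.840 in controls, where the chief cell list summed to 293992 to 527667 CPM. In mutants they were 1.24 to 1.31.

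**Figure D2:**
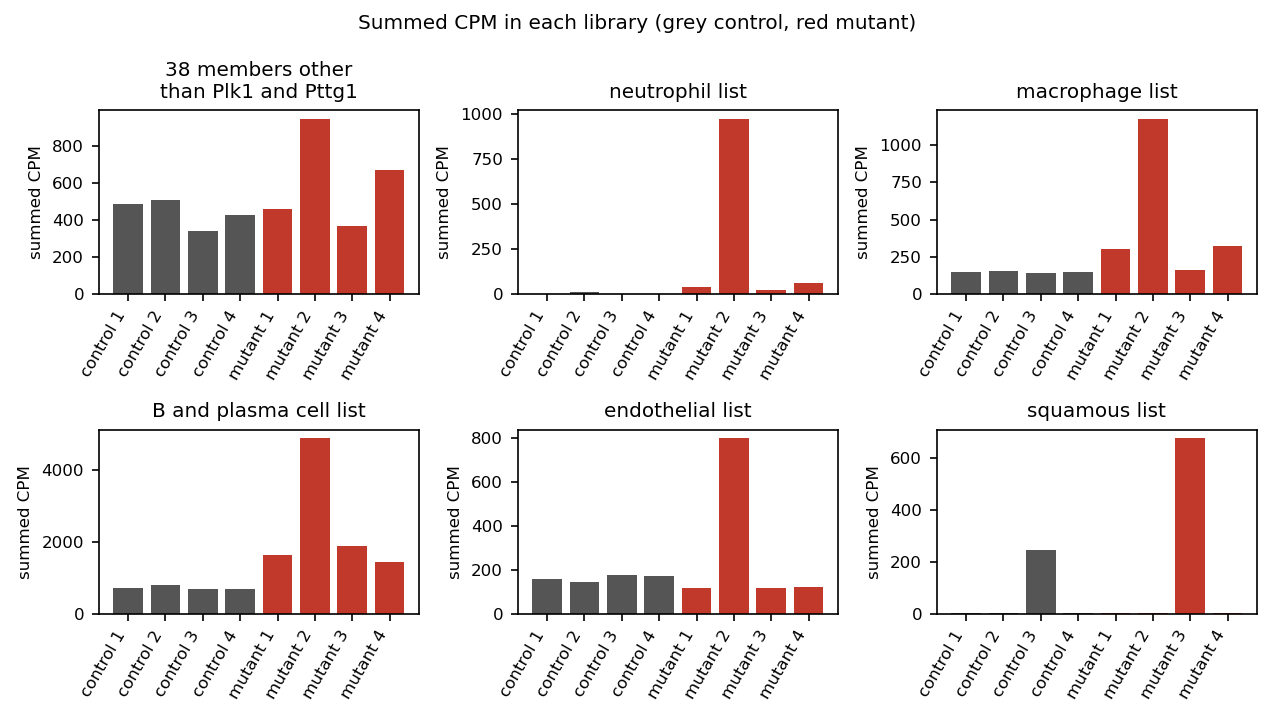
Summed CPM by library for the 38 genes other than Plk1 and Pttg1 and for the neutrophil, macrophage, B and plasma cell, endothelial and squamous marker lists. Mutant 2 has the highest sum of the 38 genes (942 CPM) and of 4 marker lists, and the squamous list is high in control 3 and mutant 3.

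Compared per transcript length, in the deposited FPKM, Plk1 was the most abundant of the 40 genes in both groups, at 33.0 ± 2.47 in controls and 62.6 ± 17.2 in mutants (SD, n = 4). Pttg1 came next in controls, at 15.4 ± 1.35 FPKM, ahead of Cdc25b (7.84 ± 1.08), Ccnb2 (7.41 ± 1.67) and Cdc20 (7.06 ± 2.5), which did not differ from each other beyond their spread. In mutants Cdc20, Ccnb2, Cdc25b, Smc4, Ube2c and Bub3 (8.20, 7.91, 7.80, 7.51, 6.47 and 6.32 FPKM) had higher means than Pttg1, at 5.89 ± 0.659, besides Plk1. The lowest control levels were those of Ttk (0.403 FPKM), Cenpf (0.437) and Ncapg (0.444).

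Among the 10 genes of mitotic entry, Plk1 rose and 9 were not called. Plk1 encodes Polo-like kinase 1, which promotes entry into mitosis and acts at centrosomes, kinetochores and the midzone. It stood at 69.1, 74.2, 68.1 and 80.5 CPM in controls 1 to 4 and at 185, 93.5, 145 and 130 in mutants 1 to 4. Every mutant lay above every control, and mutant 2, which was highest for almost all other genes, was the lowest mutant. The mean went from 73.0 ± 5.68 to 138 ± 38 CPM, which was 1.89 times as high (log2 fold change 0.92, SE 0.20, adjusted p = 0.0147). Without mutant 2 it was 1.07 (SE 0.13, adjusted p = 0.000137). The call held without any single library, but only narrowly without control 1 or control 3 (adjusted p = 0.0496 and 0.0490). It was lost with the replicate number as a block (adjusted p = 0.0557) and without both libraries with squamous transcripts (adjusted p = 0.0917). Plk1 lies at 122159439 to 122169873 on chromosome 7, plus strand, and the antisense gene Gm44985 (122167029 to 122168044) lies within it and shares 156 exon bases with it. Gm44985 had 69.6, 68.4, 48.3 and 49.7 CPM in controls and 107, 49.4, 105 and 74.8 in mutants, with overlapping groups (log2 fold change 0.51, SE 0.26, adjusted p = 0.190). Its 12362 reads over the 8 libraries stand against 18891 of Plk1, which has 2199 exon bases. Since the strand setting of the counting was not given, reads in the 156 shared bases cannot be assigned to either gene.

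The core mitotic kinase Cdk1 had 14.8, 18.1, 9.43 and 9.31 CPM in the controls and 14.0, 31.6, 7.79 and 18.8 CPM in the mutants. Mutant 3 was the lowest of all libraries and mutant 2 the highest, and the groups overlapped (12.9 ± 4.29 against 18.0 ± 10.1 CPM, log2 fold change 0.48, SE 0.42, adjusted p = 0.437). Without mutant 2 the log2 fold change of Cdk1 was 0.07. Ccnb1, its cyclin B1 partner, had 8.52, 9.66, 5.61 and 7.28 CPM in controls and 7.40, 20.2, 6.15 and 12.4 in mutants, where mutants 1 and 3 lay within the control range. Its means were 7.77 ± 1.74 and 11.5 ± 6.37 CPM (log2 fold change 0.57, SE 0.38, adjusted p = 0.317). Foxm1, the transcription factor that activates many G2 genes, had 8.58, 6.71, 5.29 and 7.34 CPM in controls and 7.97, 21.1, 5.08 and 12.7 in mutants, with the same order of the mutants. Its means were 6.98 ± 1.37 and 11.7 ± 6.99 CPM (log2 fold change 0.75, SE 0.42, adjusted p = 0.231). The other uncalled entry genes had log2 fold changes of 0.31 for cyclin A2 (Ccna2), 0.09 for Ccnb2, 0.06 for the centrosomal kinase Aurka, 0.72 for the centrosome kinase Nek2, and 0.30 and -0.01 for Cdc25c and Cdc25b, the phosphatases that activate Cdk1. Cdc25b had the smallest relative spread among these, 29.4 ± 4.03 CPM in the controls against 29.2 ± 3.57 CPM in the mutants, and with column totals it was called higher (log2 fold change 0.68, adjusted p = 0.00803). Without mutant 2 the median over the 10 entry genes was 0.05, against 0.40 with it.

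The 4 genes of anaphase and exit included the single member that fell. Pttg1 encodes securin, the inhibitor that keeps separase inactive until the anaphase-promoting complex destroys it. It lies at 43420250 to 43426251 on chromosome 11, minus strand, and shared no exon bases with another gene. Pttg1 measured 32, 32.5, 32.7 and 27.1 CPM in the controls and 11.4, 11.0, 13.8 and 11.1 CPM in the mutants. All mutants lay far below all controls, with little spread within either group, and mutant 2 was close to the others. Means were 31.1 ± 2.67 and 11.8 ± 1.30 CPM, 2.63 times as high in controls (log2 fold change -1.39, SE 0.12, adjusted p = 0.000912). Pttg1 was called lower in all 22 alternative fits, with log2 fold changes from -1.47 to -0.69 and adjusted p of at most 0.00999. The smallest fall was with column totals (log2 fold change -0.69, adjusted p = 0.0025).

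Espl1, which encodes separase, the target of securin, had 6.70, 7.03, 3.25 and 6.21 CPM in controls and 7.63, 16.3, 4.90 and 12.2 CPM in the mutants, and was not called (5.80 ± 1.73 and 10.3 ± 5.02 CPM, log2 fold change 0.82, SE 0.40, adjusted p = 0.179). Mutant 3 lay within the range of the controls. Cdc20, the activator of the anaphase-promoting complex, had 15.5, 18.1, 7.07 and 12.5 CPM in controls and 11.7, 24.6, 7.74 and 17.6 in mutants. The groups overlapped almost entirely apart from mutant 2 (13.3 ± 4.74 and 15.4 ± 7.33 CPM, log2 fold change 0.21, SE 0.40, adjusted p = 0.735), and without it the log2 fold change was -0.11. Cdc20 shares 53 exon bases with Elovl1, a fatty acid elongase gene on the opposite strand that fell (log2 fold change -0.76, SE 0.17, adjusted p = 0.0191). Ube2c, the ubiquitin-conjugating enzyme of the complex, had a log2 fold change of 0.21 (adjusted p = 0.667).

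**Figure D3:**
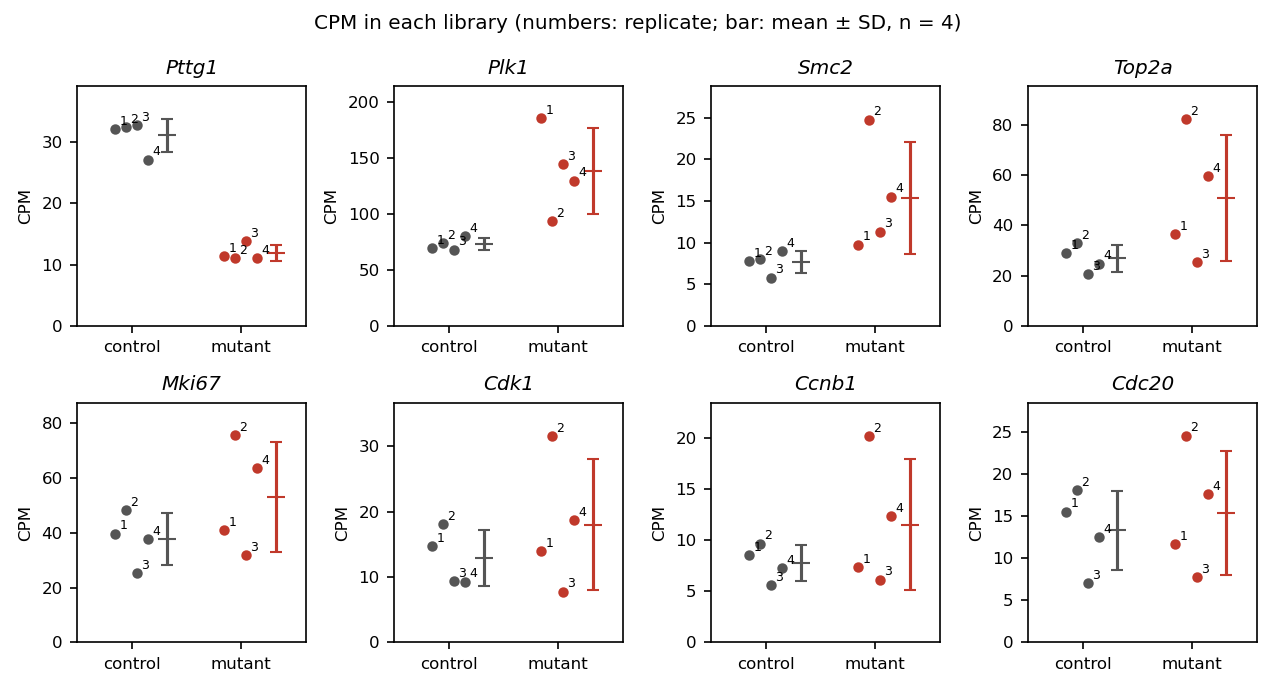
CPM of Pttg1, Plk1, Smc2, Top2a, Mki67, Cdk1, Ccnb1 and Cdc20 in each library (points), with the mean and SD of each group of 4. Pttg1 is at 11.0 to 13.8 CPM in mutants and 27.1 to 32.7 in controls, Plk1 lies above the controls in all mutants, and in Cdk1, Ccnb1 and Cdc20 the groups overlap with mutant 2 at the top.

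None of the 6 genes of chromosome structure passed, although their log2 fold changes were all above 0, with and without mutant 2. Smc2, an ATPase core subunit of condensin, was nearest to the threshold. It had 7.83, 8.02, 5.80 and 9.02 CPM in controls and 9.77, 24.8, 11.3 and 15.5 in mutants. The groups of Smc2 did not overlap, by a gap of less than 1 CPM between control 4 and mutant 1 (7.67 ± 1.35 and 15.3 ± 6.74 CPM, log2 fold change 1.00, SE 0.31, adjusted p = 0.0527). Without mutant 2 Smc2 was called higher (log2 fold change 0.67, SE 0.21, adjusted p = 0.0295), as it was without mutant 1 or mutant 3 (adjusted p = 0.0365 and 0.0477) and in 7 of 22 alternative fits in all. Top2a, topoisomerase II alpha, which untangles sister chromatids, had 29.0, 33.1, 20.6 and 24.8 CPM in controls and 36.5, 82.1, 25.4 and 59.6 in mutants. Mutant 3 lay within the control range and the other mutants above it (26.9 ± 5.36 and 50.9 ± 25.2 CPM, log2 fold change 0.92, SE 0.35, adjusted p = 0.0963). Top2a was called higher without mutant 3 (adjusted p = 0.0310) and in 4 of 22 alternative fits in all.

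Mki67, whose product coats mitotic chromosomes and is the usual marker of cycling cells, had 39.7, 48.3, 25.2 and 37.6 CPM in controls and 41.0, 75.6, 31.8 and 63.7 in mutants. Mutants 1 and 3 lay within the control range (37.7 ± 9.53 and 53.0 ± 20.2 CPM, log2 fold change 0.49, SE 0.30, adjusted p = 0.272). Ncapd2, another condensin subunit, had 24.5, 22.4, 17.1 and 21.4 CPM in controls and 24.6, 49.9, 17.8 and 31.5 in mutants, so that mutant 1 equalled the highest control to within 1 CPM (21.4 ± 3.13 and 30.9 ± 13.8 CPM, log2 fold change 0.53, SE 0.30, adjusted p = 0.229). The remaining condensin genes, Smc4 and Ncapg, had log2 fold changes of 0.53 and 0.65.

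None of the 10 kinetochore and checkpoint genes passed. Bub1b encodes BubR1, a part of the complex that blocks Cdc20 until chromosomes are attached. It had 8.77, 8.35, 5.16 and 7.05 CPM in controls and 9.83, 19.8, 7.44 and 13.5 in mutants, with mutant 3 inside the control range (7.33 ± 1.62 and 12.7 ± 5.40 CPM, log2 fold change 0.79, SE 0.32, adjusted p = 0.117). Aurkb, the kinase that corrects wrong attachments, had 6.70, 6.71, 4.97 and 4.96 CPM in controls and 8.40, 15.6, 4.39 and 12.2 in mutants. Mutant 3 was the lowest library and the other mutants lay above all controls (5.83 ± 1.01 and 10.2 ± 4.84 CPM, log2 fold change 0.80, SE 0.37, adjusted p = 0.156), and without mutant 3 Aurkb was called higher (log2 fold change 1.05, adjusted p = 0.0331). The remaining checkpoint genes had log2 fold changes of 0.98 for the kinase Bub1, 0.84 for the kinase Ttk, 0.70 for Mad2l1 and 0.18 for Bub3. Birc5 (survivin), a partner of Aurkb, was at 0.13. Of the centromere proteins, Cenpf was at 0.65, the motor Cenpe at 0.32 and Cenpa, the histone variant of the centromere, at -0.07, and without mutant 2 the value of Cenpa was -0.50 (adjusted p = 0.197).

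The 10 genes of the spindle, its midzone and cytokinesis had log2 fold changes between 0.30 and 1.17, and none passed (adjusted p between 0.150 and 0.587). Kif2c, a kinesin that takes microtubules apart at the kinetochore, had the highest value and the widest error of all 40 genes (log2 fold change 1.17, SE 0.60, adjusted p = 0.200). It had 4.39, 3.81, 1.53 and 3.04 CPM in controls and 3.97, 15.4, 2.19 and 7.18 in mutants, so mutants 1 and 3 lay within the control range. The other motors were at 0.73 for Kif11, which pushes the spindle poles apart, and at 0.51 for Kif20a, 0.70 for Kif4 and 0.60 for Kif23, which act at the midzone. Of the factors that bundle or nucleate microtubules, Tpx2 was at 0.72, Nusap1 at 0.39 and Prc1 at 0.56. Ect2 and Anln, which set up the contractile ring, were at 0.30 and 0.40. Without mutant 2 the median of the 10 genes was 0.21, against 0.58 with it, and Anln was at -0.24.

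**Figure D4:**
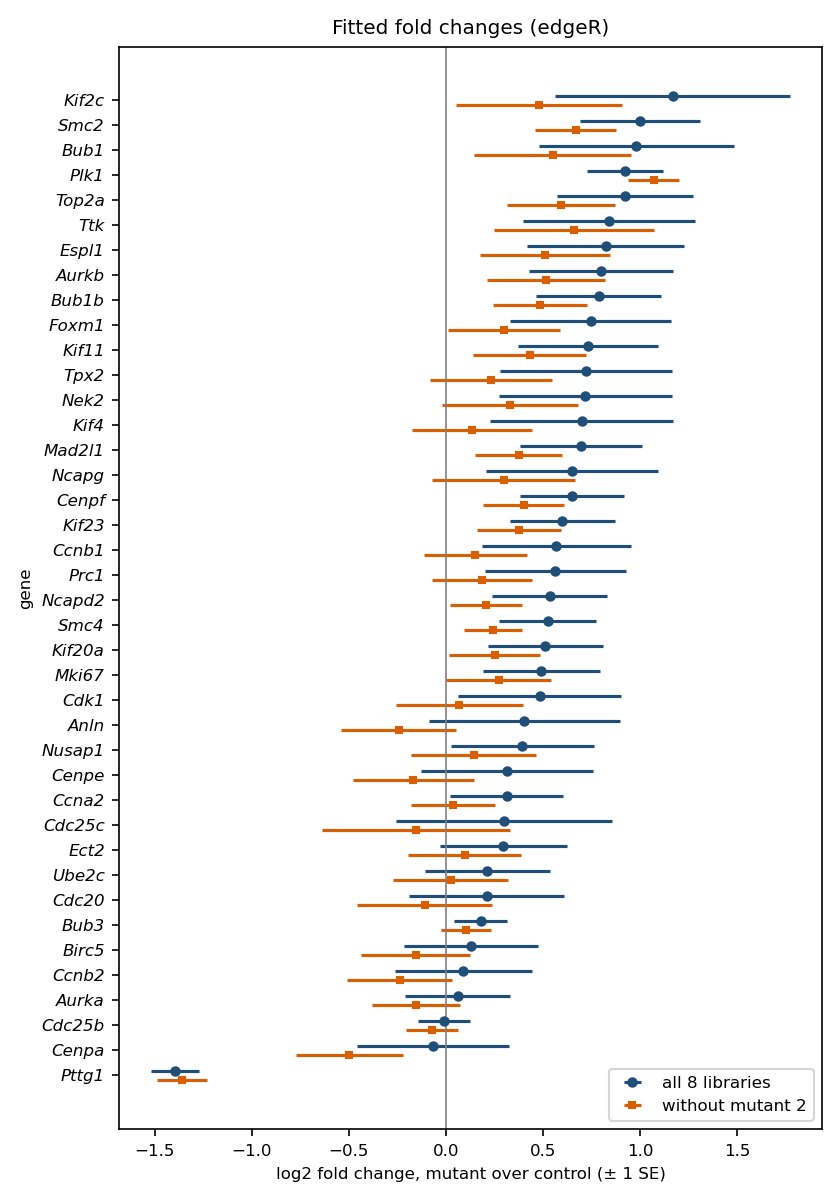
Log2 fold change, mutant over control, with 1 SE, for each of the 40 genes, from all 8 libraries and without mutant 2. Plk1 and Pttg1 keep their size without mutant 2, while the median of the 40 genes is 0.55 with it and 0.22 without.

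In all, 15 of the 40 genes shared exon bases with another annotated gene, 12 of them with a gene on the opposite strand. Among these were Kif20a with Cdc23 (1271 bases), Ncapg with Lcorl (944), Prc1 with Rccd1 (911) and Kif4 with Pdzd11 (832), and none of these 4 neighbours was called. Of the annotated pseudogenes of the 40 genes, Ccnb2-ps held 158 reads over the 8 libraries, AC151284.1, a copy of Ube2c, 110 and Ccnb1-ps 3.

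Further genes of cell division were counted in 7 lists that leave out the 40 genes. In the kinetochore and centromere list, 4 of 42 tested genes were higher and 0 lower (9.52% called, median log2 fold change 0.56), close to the median of the 40 genes and below the 20.2% of all genes called (9.39% higher and 10.8% lower). Kntc1, a kinetochore subunit that recruits dynein, rose by 1.35 (SE 0.32, adjusted p = 0.0209) from 2.24 ± 0.618 to 5.72 ± 1.78 CPM, with all mutants above all controls. Zw10, of the same complex, rose by 0.41 and Cenpt, an inner kinetochore protein, by 0.82. The spindle and cytokinesis list had 3 of 36 genes higher and 1 lower (11.1% called, median 0.57). The higher genes included Cit, citron kinase of the cleavage furrow (1.13, SE 0.29, adjusted p = 0.0299), and Kif20b, a cytokinesis kinesin (0.93, adjusted p = 0.0395). Haus8, a subunit of the augmin complex that branches spindle microtubules, fell (log2 fold change -1.35, SE 0.27, adjusted p = 0.0122), from 25.4 ± 6.03 to 9.98 ± 3.19 CPM, and was not called with column totals (-0.66, adjusted p = 0.0686). Over all genes, leaving out 1 library gave 665 (without control 1) to 2447 (without mutant 2) higher calls and 1018 (without control 3) to 2953 (without mutant 2) lower calls, against 1489 and 1719 with all 8. The same fits gave 0 to 6 higher genes in the kinetochore list, with 0 without control 1, control 3, control 4 or mutant 4, and 0 to 7 in the spindle list, with 0 without any 1 control or mutant 4. The highest count of each list was without mutant 3, and without mutant 2 the medians were 0.40 and 0.17, with 3 spindle genes lower. Kntc1 lost its call without control 1, control 3, control 4 or mutant 4, as did Cenpt and Cit without these or control 2. Kif20b lost it without any 1 control, mutant 1 or mutant 4, and Zw10 without any 1 library except mutant 2 (adjusted p of these 5 genes at most 0.107). Haus8 kept its call without any 1 library.

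The anaphase-promoting complex, which destroys securin, had 3 of 20 genes higher and 3 lower (30% called, against 20.2% of all genes, median -0.02). Anapc1, its largest subunit, rose by 0.47 (SE 0.09, adjusted p = 0.0111) and Cdc27 by 0.55 (adjusted p = 0.0271). Anapc13, a small subunit, fell (log2 fold change -1.11, SE 0.23, adjusted p = 0.0128), but was not called with column totals (-0.42, adjusted p = 0.114). Without any 1 control or mutant 1, 1 gene of the list was higher and 1 or 2 were lower, and Cdc27 lost its call (adjusted p of at most 0.0826). Without mutant 2, 4 were higher and 5 lower. In the condensin and cohesin list, 1 of 16 genes was higher (6.25% called, median 0.18). This was Esco2, an acetyltransferase that locks cohesin in S phase (1.09, SE 0.32, adjusted p = 0.0454), whose call was lost without any 1 control, mutant 1 or mutant 4 (adjusted p of at most 0.117). Without mutant 3, 3 genes of that list were higher.

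Of the regulators upstream of mitosis, the list of cyclins, their kinases and inhibitors had 5 of 29 tested genes higher and 3 lower (27.6% called, against 20.2% of all genes, median 0.17, against 0.07). Ccnd1, the cyclin D1 gene that drives G1 phase, had 35.4, 39.1, 31.9 and 34.4 CPM in controls and 94.3, 87.9, 67.2 and 67.1 in mutants. All mutants lay above all controls (log2 fold change 1.17, SE 0.14, adjusted p = 0.00196), also with each library left out (adjusted p of at most 0.0107). Cdk6, a kinase partner of cyclin D1, rose by 0.85 (SE 0.19, adjusted p = 0.0162), a call that did not hold without control 2 (adjusted p = 0.0541). Cdkn2b, an inhibitor of that kinase pair, fell from 49.7 ± 8.65 to 17.4 ± 4.70 CPM, a log2 fold change of -1.52 (SE 0.21, adjusted p = 0.00332). In the list of E2F, RB and MuvB regulators 4 of 20 genes were higher and 3 lower (35% called, against the same 20.2%, median 0.26), with Tfdp1, a dimer partner of E2F, 0.82 higher (adjusted p = 0.0048), E2f3 1.31 higher (adjusted p = 0.011) and Tfdp2, another partner, at -1.09 (adjusted p = 0.00965). Tfdp2 was not called with column totals (-0.40, adjusted p = 0.104). Leaving out 1 library gave 2 to 7 higher and 1 to 5 lower genes in the cyclin list and 3 to 5 higher and 1 to 3 lower in the E2F list, with the most in each without mutant 2. The fewest higher cyclin genes were without control 2, 3 or 4 and the fewest lower without control 1 or 2, and 1 E2F gene was lower without any 1 library except control 2 and mutant 2.

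The DNA replication and S phase list, the step before G2, had 12 of 36 genes higher and 1 lower (36.1% called, against 20.2% of all genes, with a median of 0.64). Mcm4, a subunit of the replicative helicase, had 12.0, 16, 13.1 and 15.3 CPM in controls and 25.2, 31.9, 25.2 and 29.5 in mutants, all mutants above all controls (log2 fold change 0.99, SE 0.14, adjusted p = 0.00333). Pold1, the catalytic subunit of DNA polymerase delta, rose by 0.81 (SE 0.14, adjusted p = 0.00666). Gmnn, geminin, the inhibitor of origin licensing that is itself destroyed at anaphase, was the gene that fell, from 25.0 ± 4.8 to 10.1 ± 1.61 CPM, a log2 fold change of -1.30 (SE 0.18, adjusted p = 0.00287). As for Pttg1, all mutants lay below all controls, and the fall of Gmnn passed without any 1 library (adjusted p of at most 0.0126) and, at -0.61, when column totals set the scale (adjusted p = 0.0245). Leaving out mutant 2, 14 genes of this list were higher and its median was 0.56. Without control 3 or mutant 4, 6 were higher, and without control 1 or control 4, 8.

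**Figure D5:**
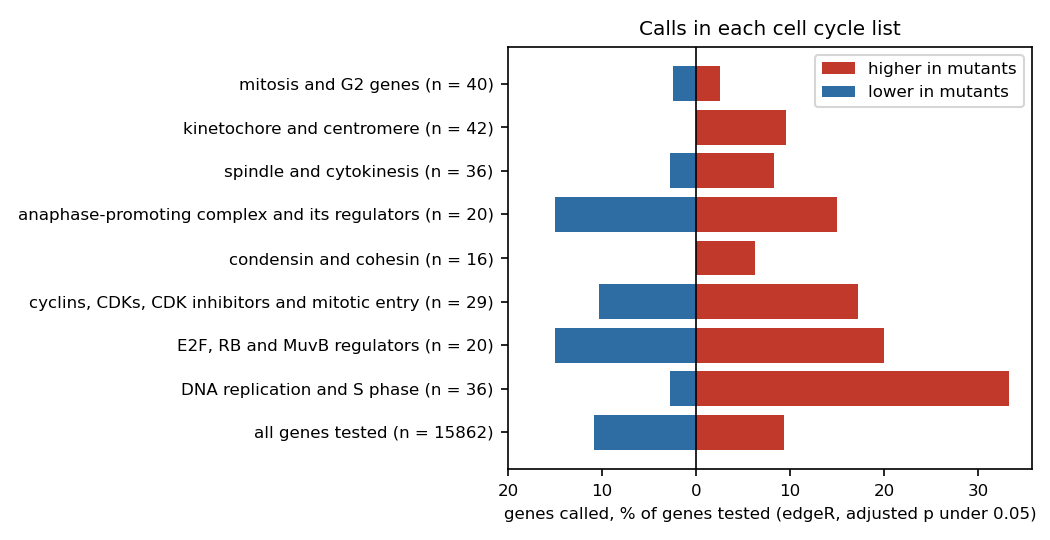
Share of tested genes called higher or lower in the mutants for the 40 mitosis and G2 genes, the 7 companion lists and all genes tested. The 40 genes have 1 call in each direction, below the background of 20.2%, and the DNA replication list has 36.1% called, nearly all higher.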

How the data were processed

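Poly(A) RNA of 8 stomach corpus samples was kept in RNAlater, extracted with Trizol and sequenced, per the labels' protocols. Raw counts per gene and FPKM values were deposited by the authors. The submitters' processing notes list the tools CASAVA, fastp, STAR 2.5 and featureCounts but give no order or role. Which build and strand setting they used is not given in the sources used here. Of 54532 genes, 54409 were shared with GENCODE M21 (GRCm38), 53499 with the same start and end. A control column with the header SCI was taken to be SC1. Totals of 18184281 to 23814720 reads per library set the precision, and floors cover counting error only.

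Genes kept by filterByExpr were scaled by TMM and entered a robust quasi-likelihood test in edgeR (version 4.0.16, under R 4.3.3) with Benjamini-Hochberg adjustment over all 15862 genes and a threshold of 0.05. Where no other tool is named, an adjusted p comes from this test, and every log2 fold change is mutant over control, computed here from the deposited counts. The script was tested on simulated data. FPKM, taken as deposited, were used only to compare levels between genes and in alternative fits with limma 3.58.1 on log2(FPKM + 1) and log2(FPKM + 0.1). Further alternatives were RLE size factors, column totals, limma-voom with weighted samples, DESeq2 1.42.0, other filters (none, a CPM of at least 1 in 4 libraries, protein-coding genes), the replicate number as a block, a Y-linked score as a covariate, a threshold of 0.01, and leaving out each library or both libraries with squamous transcripts. Leaving out control 3, mutant 2 and mutant 3 together, and the counts of the companion lists without single libraries or with column totals, were added after seeing the data. The members and lists were chosen with earlier results of these data known. Per-library values are given for members called with all libraries or without 1 of them, for a fixed gene of each role and for Espl1 and Kif2c, the last pair chosen after their values were seen. From each companion list the called genes with the 3 smallest p are named.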

Additional observations from a re-analysis of the deposited data

Results flagged for a closer look

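Of 80 groups of 4 libraries examined (40 genes, controls and mutants), 3 held a library far from the other 3, where chance gives about 1 in 20. Anln was at 10.39 CPM in control 4, against 7.69 to 8.15 in the other controls. Pttg1 was at 27.11 CPM in control 4, against 32 to 32.7 in the other controls, and at 13.77 CPM in mutant 3, against 11.0 to 11.4 in the other mutants. Both Pttg1 values left a gap of more than 10 CPM between the groups. Their origin was not tested.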

How the results depend on the processing

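Over the single genes among the 40 and the 22 alternative fits, 804 of 880 values kept direction and side of the 0.05 threshold. A further 38 passed only in the alternative, most of them with column totals. Another 2 lost their call (both of Plk1, with the replicate block and without control 3 and mutant 3), and 36, in 9 genes, changed sign. Of these 35 were called in neither fit, and the other was Cdc25b with column totals (0.68), a scaling that raised the median of all genes by 0.70, under which Cenpa also turned, to 0.64. Without mutant 2, Ccnb2 (-0.24), Birc5 (-0.16), Aurka (-0.15), Cdc20 (-0.11), Cdc25c (-0.15), Cenpe (-0.17) and Anln (-0.24) turned negative, and with each library left out these 7 ran up to 0.31, 0.34, 0.20, 0.43, 0.67, 0.56 and 0.69, in that order. With limma-voom it was Ccnb2 (-0.21), Birc5 (-0.12), Aurka (-0.085), Cdc20 (-0.0075), Cenpe (-0.092) and Anln (-0.24), and without control 3, mutant 2 and mutant 3 together Ccnb2 (-0.093), Birc5 (-0.014), Aurka (-0.18), Cdc20 (-0.073), Cdc25c (-0.28) and Cenpe (-0.043). Ccnb2 turned to -0.012 with the replicate block, -0.055 with the Y-linked covariate and -0.0099 with log2(FPKM + 0.1). Aurka turned to -0.0094 without control 3, -0.024 without control 4 and -0.0029 with the Y-linked covariate. Cdc25b turned to 0.00071 with no filter, 0.094 without control 1, 0.056 without mutant 1, 0.020 without mutant 4 (against -0.073 without mutant 2) and 0.0015 with the Y-linked covariate. Cenpa turned to 0.039 without control 1, 0.12 without mutant 1, 0.16 without mutant 3 (against -0.50 without mutant 2) and 0.11 without control 3 and mutant 3. The cause was not tested. Pttg1 remained the 1 lower gene throughout. The number of the 40 genes called higher, 1 with the main settings, was 3 with DESeq2, 2 with limma-voom, protein-coding genes only or control 3, mutant 2 and mutant 3 left out, 30 with column totals, 0 with the replicate block, without control 3 and mutant 3 or at a threshold of 0.01, and 1 to 4 with each library left out. Over all genes, 1489 were higher and 1719 lower. Higher genes numbered 2309 with DESeq2, 2625 with limma-voom, 9412 with column totals, 747 with the replicate block, 912 with the Y-linked covariate, 587 without control 3 and mutant 3, 827 with log2(FPKM + 1) and no filter, 380 at a threshold of 0.01 and 665 to 2447 with each library left out. Lower genes numbered 3068 with limma-voom, 724 with column totals, 1077 with the replicate block, 823 without control 3 and mutant 3, 667 at a threshold of 0.01 and 1018 to 2953 with each library left out. The replicate numbers share no stated litter or batch, so they were not taken to pair the animals. Same-numbered libraries deviated from their group means with correlations between -0.091 and 0.062. With mutant 2 far from the other mutants, these correlations could not show whether the animals were paired. Y-linked markers summed to 130 CPM in control 2, 163 in mutant 1 and 170 in mutant 2, and to at most 0.172 elsewhere. By these genes the sexes were not balanced between the groups, and mutant 2 was male. With the Y-linked score as a covariate Plk1 was at 0.91 (adjusted p = 0.0339). Depth limits the lowest genes most, Ttk and Cdc25c having as few as 13 and 15 reads in a library.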
